A study of Homo sapiens with 12 samples.

Results

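The 39 protein-coding genes of the HOX clusters were followed through 12 RNA-sequencing libraries of 2 established human cholangiocarcinoma cell lines, EGI-1 and HUCCT1. A member was any gene whose symbol is HOXA, HOXB, HOXC or HOXD followed by digits only, which took 39 of the 60651 features in the count table and left antisense RNAs out. The HOXA cluster holds 11 of them (chr7:27092993-27200091), HOXB 10 (chr17:48528526-48728750), HOXC 9 (chr12:53938831-54056030) and HOXD 9 (chr2:176092721-176190907), in GENCODE coordinates on GRCh38. EGI-1 cells, labelled wild type, were given DMSO as vehicle, decitabine at 500 nM, talazoparib at 200 nM, or the 2 drugs together at those doses. HUCCT1 cells, also labelled wild type, received DMSO vehicle or 1000 nM decitabine. Harvest was at 72 h in every case, with 2 libraries for each of the 6 arms. Decitabine is a nucleoside analogue that traps DNA methyltransferases on newly made DNA, and talazoparib is an inhibitor of PARP enzymes. The decitabine dose differed between the lines and no HUCCT1 library received talazoparib. Nothing in the labels says that replicates were separate cultures, so p-values measure the spread between these libraries, and an exact permutation test of 2 libraries against 2 cannot go below 0.333.

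HOX genes encode homeodomain transcription factors that set position along the head to tail axis of the embryo. They lie in 4 clusters in which low paralogue numbers act anteriorly and high numbers posteriorly, and the order on the chromosome follows the order of expression along the body. In adult cells the pattern is held by Polycomb and Trithorax proteins and many HOX promoters lie in CpG islands, which can gain DNA methylation in tumors. DNA methylation itself was not measured here.

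RefSeq promoter windows of GRCh38.p14, running from 250 bases before the start of transcription to 50 bases after it, were found for 20 members. Members with no window included HOXA5, HOXB2 to HOXB9, HOXB13, HOXC6, HOXC8 to HOXC13 and HOXD9. The dinucleotide CG, which reads the same on both strands, was counted in each window, and 96.0% of the 34943 distinct promoter windows of all genes hold at least 1. The 26 distinct windows of HOX members held a median of 22.5 CG against a median of 14 over all promoters. The windows below are examples from the HOXA and HOXD clusters. They show genes that gained reads after decitabine in HUCCT1 and others that were not called, and were chosen with those results known. CG is in capitals and each sequence is written 5′ to 3′ on the strand of its gene.
HOXD1: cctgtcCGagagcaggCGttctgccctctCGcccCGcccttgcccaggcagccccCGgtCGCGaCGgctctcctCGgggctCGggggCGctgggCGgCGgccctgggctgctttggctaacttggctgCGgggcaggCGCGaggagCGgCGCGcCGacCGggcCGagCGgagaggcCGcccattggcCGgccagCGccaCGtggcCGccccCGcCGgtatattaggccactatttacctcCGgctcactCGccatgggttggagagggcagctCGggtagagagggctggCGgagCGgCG
HOXD8: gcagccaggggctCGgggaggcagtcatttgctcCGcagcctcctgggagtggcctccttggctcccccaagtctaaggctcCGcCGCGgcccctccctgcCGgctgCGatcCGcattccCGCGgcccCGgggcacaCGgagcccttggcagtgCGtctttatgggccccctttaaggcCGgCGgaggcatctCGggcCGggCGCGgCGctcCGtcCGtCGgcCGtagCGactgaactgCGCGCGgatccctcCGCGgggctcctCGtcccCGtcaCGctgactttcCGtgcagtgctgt
HOXD4: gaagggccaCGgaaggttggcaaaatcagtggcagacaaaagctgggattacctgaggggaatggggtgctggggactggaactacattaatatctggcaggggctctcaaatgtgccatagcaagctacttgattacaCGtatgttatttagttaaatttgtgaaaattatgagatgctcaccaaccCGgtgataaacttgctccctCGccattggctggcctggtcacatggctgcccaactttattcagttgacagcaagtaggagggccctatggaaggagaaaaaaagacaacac
HOXA9: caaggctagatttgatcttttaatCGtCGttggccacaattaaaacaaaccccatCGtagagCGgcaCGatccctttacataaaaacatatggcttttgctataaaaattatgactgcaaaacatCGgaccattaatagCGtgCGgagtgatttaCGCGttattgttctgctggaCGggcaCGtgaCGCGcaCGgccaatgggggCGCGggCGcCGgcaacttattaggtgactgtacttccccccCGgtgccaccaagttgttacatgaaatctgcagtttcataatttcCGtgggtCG
HOXA11: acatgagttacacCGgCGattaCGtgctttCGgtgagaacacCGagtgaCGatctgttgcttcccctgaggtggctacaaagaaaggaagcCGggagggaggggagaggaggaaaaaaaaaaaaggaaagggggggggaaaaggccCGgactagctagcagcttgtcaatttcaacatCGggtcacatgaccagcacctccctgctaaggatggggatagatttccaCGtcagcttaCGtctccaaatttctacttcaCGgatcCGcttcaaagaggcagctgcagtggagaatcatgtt
HOXA13: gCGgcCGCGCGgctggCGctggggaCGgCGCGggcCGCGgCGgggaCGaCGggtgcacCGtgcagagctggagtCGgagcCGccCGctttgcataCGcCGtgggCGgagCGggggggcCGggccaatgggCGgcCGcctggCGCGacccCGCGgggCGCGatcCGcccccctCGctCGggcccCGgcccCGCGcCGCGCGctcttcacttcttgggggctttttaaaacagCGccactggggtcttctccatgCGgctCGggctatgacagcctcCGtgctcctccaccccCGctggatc
HOXA2: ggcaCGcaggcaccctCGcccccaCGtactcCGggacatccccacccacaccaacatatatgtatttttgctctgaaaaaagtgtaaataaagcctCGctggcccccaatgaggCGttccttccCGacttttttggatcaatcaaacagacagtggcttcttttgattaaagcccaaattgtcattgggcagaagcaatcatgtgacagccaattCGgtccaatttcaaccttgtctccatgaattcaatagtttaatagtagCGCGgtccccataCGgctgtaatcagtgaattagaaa

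The HOXD1 window (chr2:176188418-176188717, plus strand) held 36 CG, and 12.7% of all promoters hold as many. That of HOXD8 (chr2:176129455-176129754, plus strand) held 34, reached by 15.6% of promoters. The HOXD4 window (chr2:176151300-176151599, plus strand) held only 4, a number that 75.4% of promoters reach. In the HOXA cluster the windows of HOXA9 (chr7:27165488-27165787, minus strand) and HOXA11 (chr7:27185183-27185482, minus strand) held 22 and 13. The HOXA13 window (chr7:27200042-27200341, minus strand) held 44, the highest among the members, and only 4.19% of promoters hold as many. HOXA2 (chr7:27102634-27102933, minus strand) had 11. The CG content of these windows is a description.

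The EGI-1 libraries held 23139065 to 33181930 counted reads and the HUCCT1 libraries 32519985 to 34965627. All 8 biliary and epithelial markers, among them KRT7, KRT19, KRT8, KRT18, EPCAM, CDH1 and SOX9, were at 1 CPM or more in every arm, and none of 5 hepatocyte markers was. The EGI-1 combination replicate 2 stood apart. It held 381 reads of PTPRC and 148 of CD3E, genes of blood cells, against at most 7 and 4 in the other EGI-1 libraries, and the summed level of the 4 blood markers in the combination arm ran from 1.96 to 20.4 CPM. The members called in the EGI-1 combination, and the other genes named there, are therefore also given without that library, for the other genes as an alternative chosen after seeing the data. Reads of exons shared between genes cannot be assigned with certainty, since the strand setting and the handling of reads over several genes are not given in the sources used here. Of the 39 members, 20 share exon bases with a gene on the opposite strand, 16 with a gene on the same strand and 14 with none. Levels are CPM, counts scaled to library size by TMM, a correction for library composition. A gene with 3 counts or fewer in both libraries of an arm is called at the floor. In the HUCCT1 vehicle libraries 3 counts equal 0.0988 and 0.0991 CPM.

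The 2 lines differed before any drug in which HOX genes they expressed. EGI-1 vehicle cells expressed 27 of 39 members at a mean of 1 CPM or more, and HUCCT1 vehicle cells 13. In EGI-1 only 6 members were at the floor, HOXB1, HOXC12, HOXD9, HOXD10, HOXD11 and HOXD13. In HUCCT1 20 members were at the floor and 14 of them had no read in either vehicle library. All 9 members of HOXD, 6 of HOXC and 4 of HOXA were among the 20. In these bulk libraries fewer expressing cells and less RNA per cell cannot be told apart.

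**Figure D1:**
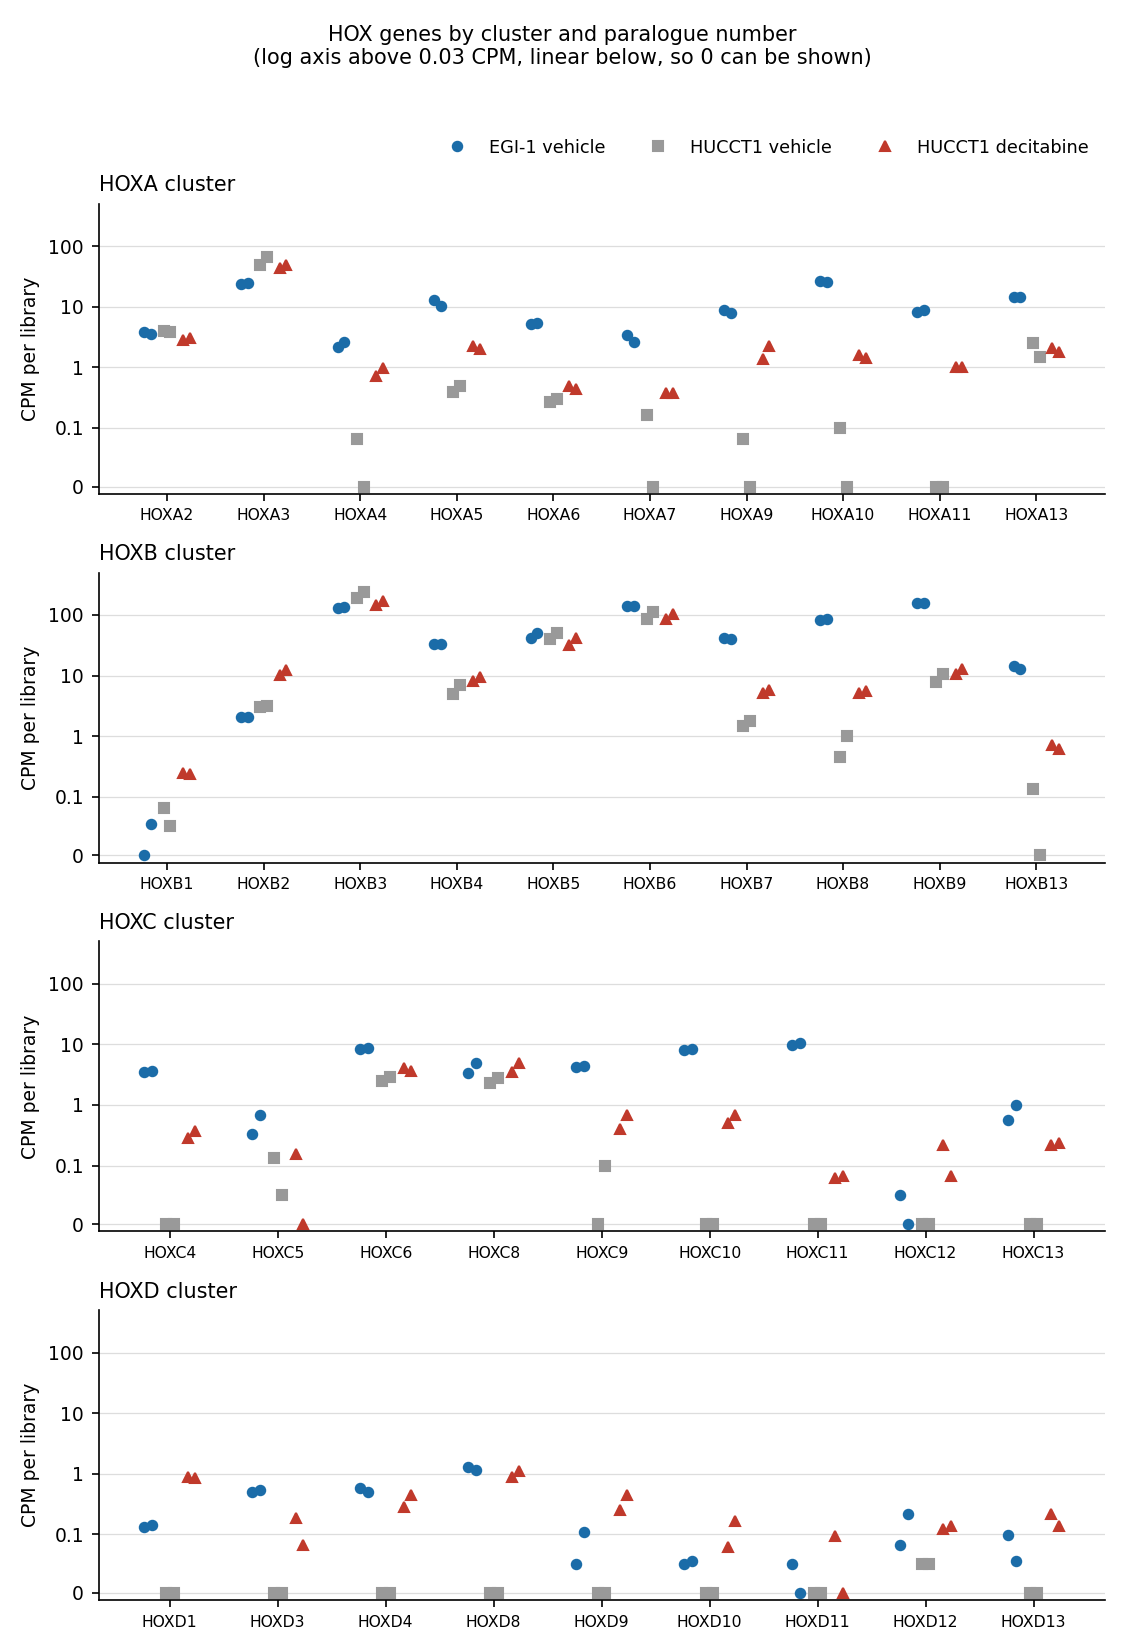
CPM of HOX genes in the 2 libraries of EGI-1 vehicle (circles), HUCCT1 vehicle (squares) and HUCCT1 decitabine (triangles), by cluster and paralogue number, on an axis that is logarithmic above 0.03 CPM and linear below it. HUCCT1 vehicle reached the EGI-1 level in HOXA2, HOXA3, HOXB2, HOXB3 and HOXB5 and lay at or near 0 in HOXD, 6 of 9 HOXC genes and HOXA4, HOXA9, HOXA10 and HOXA11.

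The anterior genes HOXA3, which is needed for the thymus and parathyroid, and HOXB3 were the members higher in HUCCT1 vehicle than in EGI-1 vehicle, with HOXB2. HOXA3 had 1486 and 2027 reads in HUCCT1 vehicle and 728 and 690 in EGI-1 vehicle, a log2 difference of 1.25 ± 0.12 (standard error, adjusted p = 1.04e-08, edgeR quasi-likelihood test over 25096 genes). HOXB3 had 5733 and 7170 against 3924 and 3697, a log2 difference of 0.70 ± 0.10 (adjusted p = 2.21e-06, edgeR). HOXB2 had 91 and 96 against 62 and 57, and its call of 0.59 (adjusted p = 0.0187, edgeR) was lost without any 1 of HUCCT1 vehicle replicate 2 (adjusted p = 0.0821), EGI-1 vehicle replicate 1 (0.0992) or EGI-1 vehicle replicate 2 (0.0773). In all, 3 of the 33 members tested were higher in HUCCT1, where 28.5% of all genes tested were called higher, and 27 were lower, where 27.3% of all genes were. HOXA2, HOXB5 and HOXD12 did not pass the test in either direction.

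The mid and posterior genes of HOXB, which EGI-1 expressed strongly, were among those lower in HUCCT1. HOXB9 had 4727 and 4314 reads in EGI-1 vehicle and 242 and 318 in HUCCT1 vehicle, a log2 difference of -4.07 ± 0.11 (adjusted p = 9.10e-18, edgeR). HOXB8 had 2525 and 2366 reads in EGI-1 vehicle and 14 and 30 in HUCCT1 vehicle, a log2 difference of -6.85 ± 0.18 (adjusted p = 9.10e-18, edgeR). HOXB7 had 1263 and 1109 against 44 and 54, a log2 difference of -4.65. No library of either line overlapped the other for these genes, which were picked by their calls. HOXB6 had 4344 and 3879 reads in EGI-1 and 2568 and 3334 in HUCCT1, a difference of -0.53. HOXB4, a regulator of blood stem cells, had 1027 and 909 against 151 and 208, and HOXB13, a gene of the prostate, 433 and 355 against 4 and 0. Per kilobase of exon, HOXB9 (59.97 CPM per kb ± 0.00332 SD, n = 2) and HOXB6 (54.1 ± 0.831) led the HOXB cluster in EGI-1 vehicle, and HOXB6 (37.4 ± 6.94) and HOXB3 (28.7 ± 4.58) did so in HUCCT1 vehicle.

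In HOXA and HOXC some genes expressed in EGI-1 were at the floor in HUCCT1 vehicle, and others differed in level. HOXA10, a gene of the uterus and hindlimb, had 813 and 718 reads in EGI-1 vehicle and 3 and 0 in HUCCT1 vehicle, a ratio of 531 (95% counting interval 181 to 2576, exact, covering counting error only). HOXA9, known as a leukemia gene, had 267 and 217 against 2 and 0, a ratio of 252 (69.3 to 2084). HOXA11, which shapes the forearm and kidney, had 247 and 242 reads in EGI-1 and 0 in both HUCCT1 vehicle libraries, at least 84.9-fold lower against a floor of 3 counts per library. These 3 neighbours were thus near their floor in HUCCT1 before treatment. HOXC11 was at least 104-fold lower in HUCCT1 (302 and 298 reads against 0 and 0), HOXC10 at least 82.4-fold (242 and 233 against 0 and 0), and HOXC4 at least 35.9-fold (105 and 102 against 0 and 0). HOXC9 had 129 and 124 reads in EGI-1 and 0 and 3 in HUCCT1. HOXC6 and HOXC8 were the HOXC genes that both lines expressed, with 258 and 238 against 75 and 88 reads for HOXC6 and 102 and 135 against 71 and 85 for HOXC8. The HOXC8 call (-0.67, adjusted p = 0.0149, edgeR) was lost without HUCCT1 vehicle replicate 1 (adjusted p = 0.118) or EGI-1 vehicle replicate 2 (0.274).

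HOXD was weak in both lines. HOXD8 had 40 and 32 reads in EGI-1 vehicle, HOXD4 18 and 14, HOXD3 15 and 15 and HOXD1 4 and 4, and each had 0 in both HUCCT1 vehicle libraries. These gave bounds of at least 12.4-fold, 5.53-fold, 5.21-fold and 1.39-fold lower in HUCCT1. Further calls toward EGI-1 were HOXA4 (66 and 73 reads against 2 and 0), HOXA5 (395 and 282 against 12 and 15), HOXA6 (158 and 149 against 8 and 9), HOXA7 (103 and 73 against 5 and 0), HOXA13 (438 and 399 against 76 and 45), HOXC5 (10 and 19 against 4 and 1) and HOXC13 (17 and 28 against 0 and 0). In none of these 7 genes, picked by their calls, did the libraries of the 2 lines overlap, which is a description. The HOXC5 call was lost without HUCCT1 vehicle replicate 2 (adjusted p = 0.102, edgeR) or EGI-1 vehicle replicate 2 (0.125).

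Decitabine in HUCCT1 was followed by reads from members that had none. Of the 14 members at 0 in both vehicle libraries, 9 had over 3 counts in both decitabine libraries, against 9.2% of the 3403 protein-coding genes at 0 in both vehicle libraries. In the other direction no member was at 0 in both decitabine libraries, and of the 2374 protein-coding genes that were, 0.0421% had over 3 counts in both vehicle libraries. The number of members at the floor went from 20 in vehicle to 2 in decitabine, HOXC11 (2 and 2 reads) and HOXD11 (3 and 0).

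**Figure D2:**
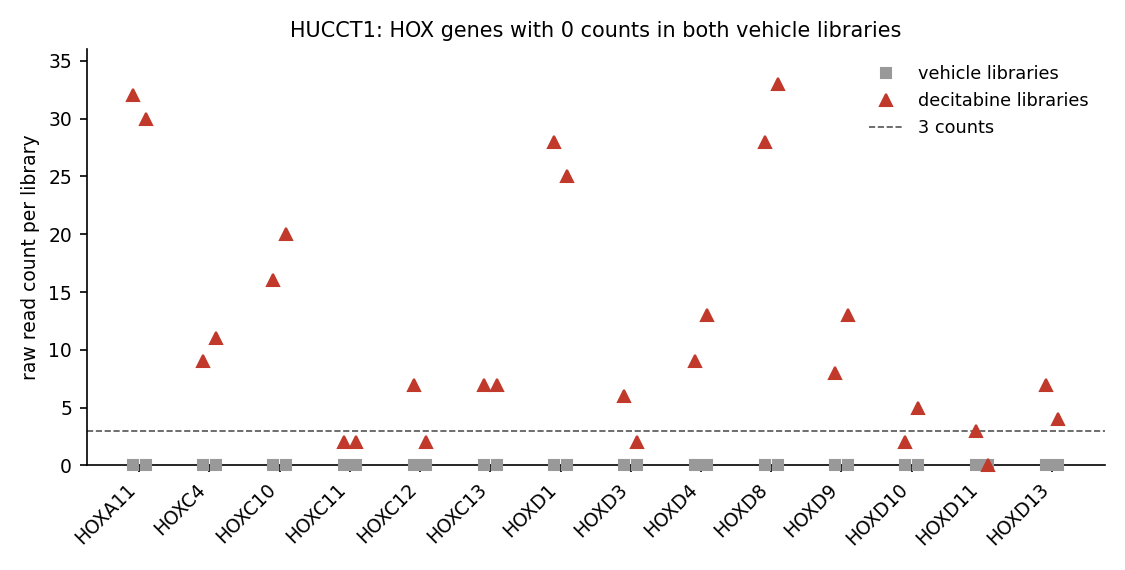
Raw read counts per HUCCT1 library for the 14 HOX genes with 0 counts in both vehicle libraries (squares, all at 0), with the 2 decitabine libraries as triangles and the floor of 3 counts as a dashed line. HOXA11, HOXD1, HOXD8 and HOXC10 had 16 to 33 reads in each decitabine library, and HOXC11 and HOXD11 did not pass the floor.

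The HOXD cluster as a whole went from 1 and 1 reads in the vehicle libraries to 95 and 99 in the decitabine libraries, or from a summed 0.0330 CPM to 3.15 ± 0.267 (SD, n = 2). That is the range of EGI-1, whose 4 arms had mean HOXD sums of 2.76 to 3.46 CPM. HOXD1 had 28 and 25 reads in decitabine, at least 8.68-fold above the floor of its vehicle libraries. HOXD8 had 28 and 33, at least 10.0-fold. HOXD4 had 9 and 13 reads (at least 3.64-fold) and HOXD9 had 8 and 13 (at least 3.48-fold). The posterior HOXD13, a gene of the digits, had 7 and 4 reads, HOXD3 6 and 2, HOXD10 2 and 5 and HOXD12 4 and 4 against 1 and 1 in vehicle. HOXD1 and HOXD8 passed the expression filter only through decitabine, and both were called higher (adjusted p = 8.44e-06 and 3.27e-06, edgeR). Genes that pass in this way had to be higher to be tested, so their p-values are a description. The other 7 HOXD genes were too low for the test. HOXD1 shares 60.1% of its exon bases with the opposite strand genes HAGLR and ENSG00000279160, and HAGLR itself went from 0 and 0 to 81 and 63 reads, so the 2 cannot be told apart where reads were counted without strand. HOXD8 shares 24.4% with HOXD-AS2, and HOXD4, HOXD9, HOXD12 and HOXD13 share none with any gene.

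In HOXC genes at the floor gained reads, and of the 2 expressed genes 1 was called. HOXC10, a gene of the lumbar region and hindlimb, went from 0 and 0 to 16 and 20 reads, at least 5.93-fold (adjusted p = 9.09e-05, edgeR). HOXC4 went from 0 and 0 to 9 and 11, at least 3.30-fold, and HOXC13, a gene of hair and nail, from 0 and 0 to 7 and 7, at least 2.30-fold. HOXC9 went from 0 and 3 to 13 and 20, a ratio of 10.8 (95% counting interval 3.39 to 55.1). Its call (adjusted p = 3.25e-03, edgeR) was lost without vehicle replicate 1 (adjusted p = 0.0691) or decitabine replicate 2 (0.128). HOXC9 and HOXC10 passed the filter only through decitabine, so their p-values are a description. HOXC12 had 7 and 2 reads after 0 and 0, and HOXC5 had 4 and 1 in vehicle and 5 and 0 in decitabine. Of the expressed pair, HOXC8 went from 71 and 85 to 110 and 144 reads (log2 fold change 0.68 ± 0.24, adjusted p = 0.0301, edgeR), a call lost without vehicle replicate 1 (adjusted p = 0.175) or decitabine replicate 2 (log2 fold change 0.41, adjusted p = 0.354). HOXC6 had 75 and 88 and then 130 and 109 reads and did not pass the test (0.52, adjusted p = 0.0851). The HOXC sum rose from 5.39 ± 0.641 to 9.98 ± 0.921 CPM and remained under the 38.8 to 40.8 CPM of the EGI-1 arms.

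The silent middle of HOXA gained reads while its ends differed. HOXA9 went from 2 and 0 reads to 44 and 67, a ratio of 54.6 (95% counting interval 14.8 to 456, adjusted p = 2.48e-07 by edgeR). HOXA10 went from 3 and 0 to 51 and 42, a ratio of 30.5 (10.1 to 151, adjusted p = 1.65e-06). HOXA4 went from 2 and 0 to 23 and 29, a ratio of 25.6 (6.73 to 217, adjusted p = 8.05e-05). All 3 were far above vehicle in both decitabine libraries. They and HOXA11 passed the filter only through decitabine, so their p-values are a description. HOXA4 shares 47.8% of its exon bases with other genes, HOXA9 27.0% and HOXA10 26.3%. HOXA11 went from 0 and 0 to 32 and 30 reads, at least 10.2-fold (adjusted p = 2.69e-06, edgeR), beside its antisense neighbour HOXA11-AS, which went from 2 and 5 to 37 and 29 and shares 27.2% of the exon bases of HOXA11. HOXA5, a lung patterning gene that shares no exon base, went from 12 and 15 to 71 and 60 (log2 fold change 2.23 ± 0.35, adjusted p = 1.88e-05, edgeR). HOXA6 (8 and 9, then 16 and 13) and HOXA7 (5 and 0, then 12 and 11) were not called, with adjusted p = 0.358 and 0.0567 by edgeR.

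Members of HOXA that HUCCT1 already expressed at both ends of the cluster were not called higher. HOXA13, the most posterior, had 76 and 45 reads in vehicle and 68 and 53 in decitabine (log2 fold change -0.04 ± 0.29, adjusted p = 0.937, edgeR). HOXA2 had 123 and 116 and then 89 and 89 (-0.46 ± 0.22, adjusted p = 0.121, edgeR). HOXA3, the strongest member of the cluster in HUCCT1 at 13.5 ± 2.96 CPM per kb in vehicle, had 1486 and 2027 and then 1375 and 1456 reads. Its call as lower (-0.34, adjusted p = 0.0451, edgeR) was lost without vehicle replicate 2 (-0.12, adjusted p = 0.609) or decitabine replicate 1 (-0.25, adjusted p = 0.242) and with DESeq2 (adjusted p = 0.0934). The HOXA sum, set mostly by HOXA3, was 66.4 ± 11.7 CPM in vehicle and 65.5 ± 4.16 in decitabine.

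In HOXB decitabine raised genes that HUCCT1 expressed weakly and was followed by little change in the strong ones. HOXB8 went from 0.461 and 0.991 CPM to 5.06 and 5.54 CPM (log2 fold change 2.85 ± 0.29, adjusted p = 2.18e-08, edgeR). HOXB2 went from 91 and 96 reads to 332 and 367 reads (1.87 ± 0.18, adjusted p = 9.89e-09, edgeR). HOXB7 went from 1.45 and 1.78 CPM to 5.12 and 5.77 CPM (1.74 ± 0.23, adjusted p = 1.91e-06, edgeR). In these 3 genes both decitabine libraries lay far above both vehicle libraries. HOXB13 went from 4 and 0 to 23 and 18 reads (3.24 ± 0.77, adjusted p = 1.85e-03, edgeR). It passed the filter only through decitabine, so its p-value is a description. HOXB4 went from 151 and 208 to 265 and 280 (0.57 ± 0.18, adjusted p = 0.0163, edgeR), a call lost without vehicle replicate 1 (0.35, adjusted p = 0.248) or decitabine replicate 2 (0.48, adjusted p = 0.118). HOXB1, the hindbrain gene next to HOXB2, had 2 and 1 and then 8 and 7 reads, a ratio of 4.92 (1.39 to 26.5).

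The 3 HOXB genes with the most reads in HUCCT1 were slightly lower or not called. HOXB3 had 5733 and 7170 reads in vehicle and 4657 and 5056 in decitabine (-0.44 ± 0.12, adjusted p = 4.97e-03, edgeR), a call lost without vehicle replicate 2 (-0.29, adjusted p = 0.118) or decitabine replicate 1 (-0.33, adjusted p = 0.0979). HOXB6 had 2568 and 3334 and then 2785 and 3105 (-0.03 ± 0.12, adjusted p = 0.875, edgeR). HOXB5 had 1203 and 1538 and then 1008 and 1234 (-0.32 ± 0.14, adjusted p = 0.0766, edgeR). The libraries of the 2 arms overlapped for HOXB5 and HOXB6. HOXB9 had 242 and 318 and then 340 and 381 (0.34 ± 0.16, adjusted p = 0.122, edgeR), and its libraries did not overlap. The HOXB sum was 376 ± 63.7 CPM in vehicle and 334 ± 42.4 in decitabine, and in EGI-1 it was between 600 and 646 in the 4 arms.

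**Figure D3:**
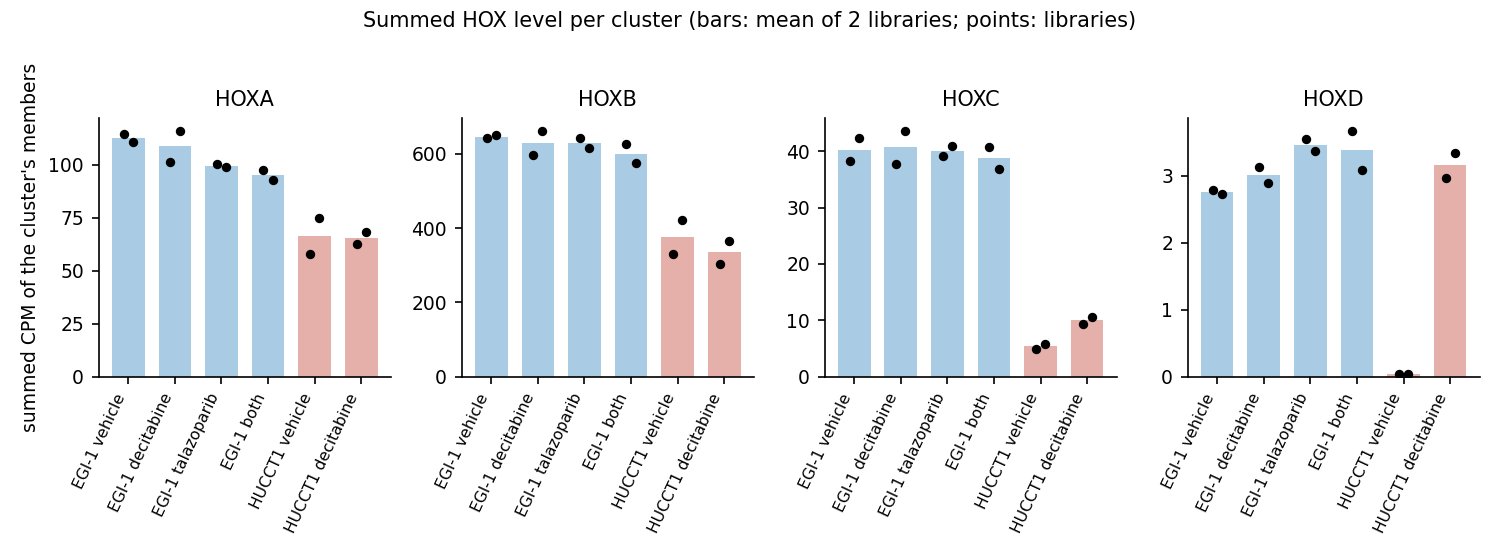
Summed CPM of the members of each HOX cluster in the 6 arms, with bars for the mean of 2 libraries and points for the libraries (each panel has its own axis from 0). HOXD in HUCCT1 went from 0.0330 to 3.15 CPM with decitabine, while the HOXA and HOXB sums of HUCCT1 overlapped between vehicle and decitabine.

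Counted over the test, 26 of the 39 members passed the expression filter in HUCCT1, 16 were called higher, where 19.6% of the 22479 genes tested were, and 2 lower, where 13.9% were. Of the 26, 11 passed the filter only through decitabine and had to be higher to be tested at all, so the count is a description. Among the 15 members that both vehicle libraries brought past the filter, 7 were called higher, among them HOXA5, HOXB2, HOXB4, HOXB7, HOXB8 and HOXC8, against 14.8% of the 19431 such genes, and 2 lower against 16.1%. With all 12 libraries in 1 fit, in which 32 of the 33 members tested also passed the filter among the EGI-1 libraries alone, 23 members were called higher in HUCCT1 decitabine against 19.7% of genes, and 2 lower against 14.7%. Markers of other cell types also moved with decitabine in HUCCT1. The summed level of the 5 fibroblast and mesenchymal markers was 37.2 to 37.7 CPM in vehicle, with 2 at 1 CPM or more and DCN at 0, and 168.1 to 197.9 in decitabine, with 4 at 1 CPM or more. COL1A1 made up most of it (805 and 896 reads, then 5089 and 5611). The 3 endothelial markers summed to 4.10 to 5.47 and then 24.9 to 26.0 CPM, the blood markers to 0.496 to 0.593 and then 1.22 to 1.35 CPM, and the 8 biliary and epithelial markers to 14780 to 16580 and then 9376 to 10730 CPM. The part of these shifts in the HOX counts was not tested.

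In EGI-1 decitabine alone moved no member past the threshold. Of 32 members tested none had an adjusted p under 0.05 by edgeR, where 0.544% of 22406 genes did, and none did by DESeq2. At an unadjusted p under 0.05 there were 2, where 9.14% of genes passed, among them HOXB13 (433 and 355 reads, then 450 and 464, log2 fold change 0.25). The genes that gained reads in HUCCT1 were mostly expressed in EGI-1 before treatment. HOXA9 had 205 and 250 reads in EGI-1 decitabine against 267 and 217 in vehicle, HOXA10 652 and 773 against 813 and 718, and HOXC10 253 and 253 against 242 and 233. HOXD1, at 4 and 4 reads in EGI-1 vehicle, had 6 and 4 in decitabine, and the 6 members at the floor in EGI-1 vehicle stayed at the floor in every EGI-1 arm.

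**Figure D4:**
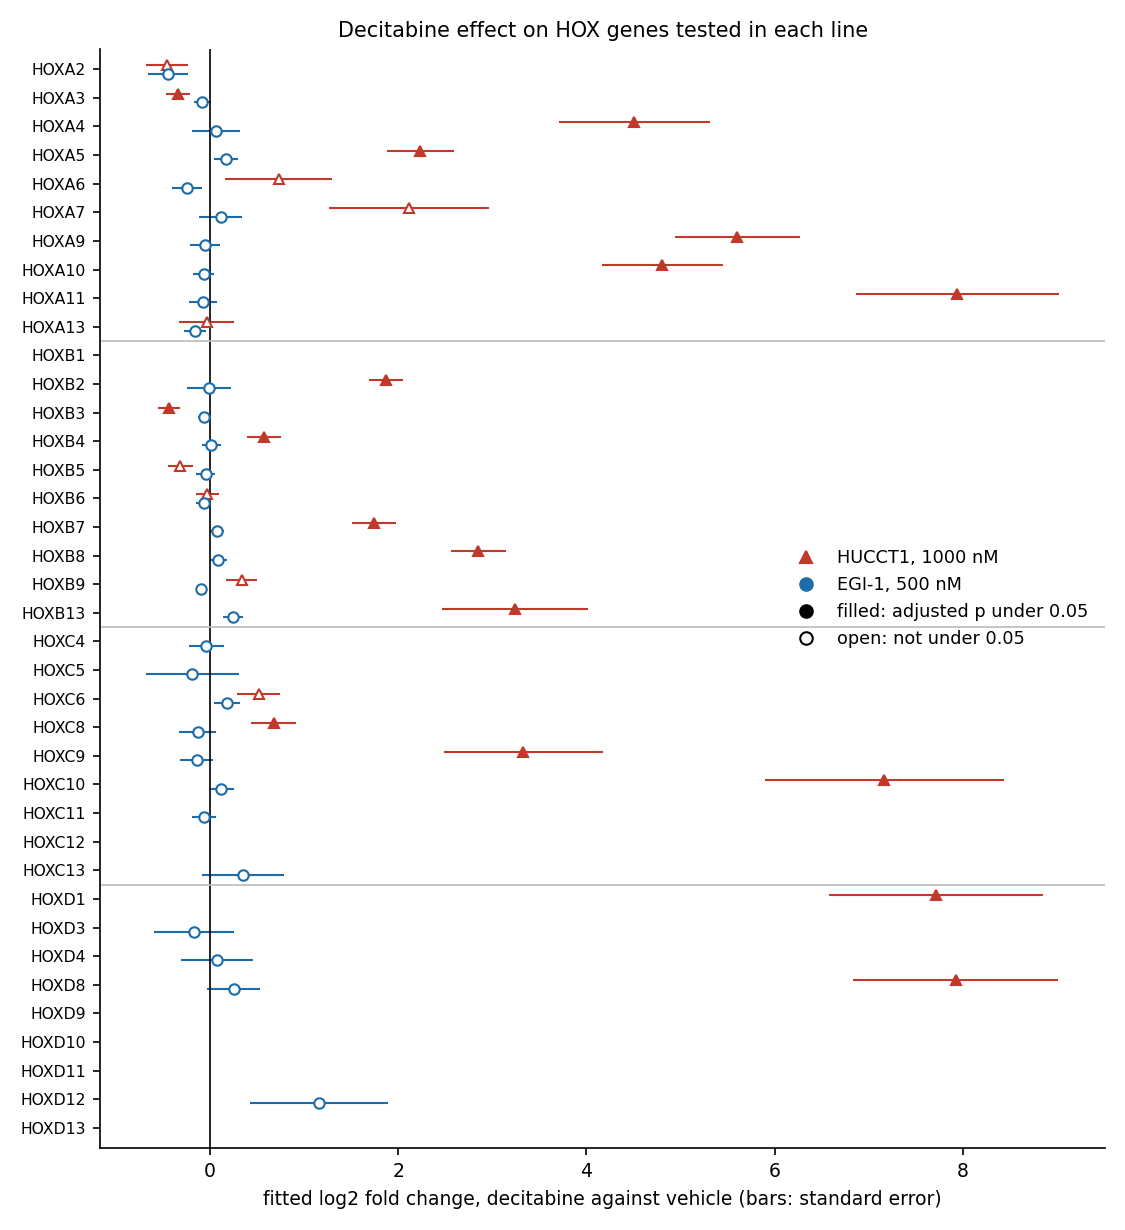
Fitted log2 fold change of decitabine against vehicle with its standard error for HOX genes tested in HUCCT1 (triangles, 1000 nM) and EGI-1 (circles, 500 nM), filled where the adjusted p was under 0.05. EGI-1 values lie between -0.45 and 1.16 with no filled symbol, and in HUCCT1 filled symbols lie to the right of 0 except for HOXA3 and HOXB3. Genes not drawn for a line were too low to be tested in it, and large values against an arm at 0 depend on the prior count of the fit.

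The difference between the lines in the decitabine effect was tested as an interaction over 25096 genes. It was higher in HUCCT1 for 20 of 33 members, where 8.74% of genes were called higher, and lower for none by edgeR, where 7.2% were. No member was lower by DESeq2, which called 18 higher. Other runs did call a member lower. With a replicate block by title number 20 of the 21 members called were higher, and with no filter 21 of 22. In the main fit only HOXB3 was lower at an unadjusted p under 0.05 (-0.36 ± 0.14, adjusted p = 0.0795, edgeR). Among genes with reads in all arms the difference was 2.78 ± 0.26 for HOXB8 (adjusted p = 1.30e-07, edgeR), 1.90 ± 0.28 for HOXB2 (6.22e-05) and 1.68 ± 0.18 for HOXB7 (5.78e-07). The dose cannot be told apart from the line, and genes already expressed in EGI-1 started from a different level.

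The study compared talazoparib and the combination in EGI-1 to learn what a PARP inhibitor adds to decitabine. Few of the 32 members tested were called against vehicle, 1 with talazoparib and 5 with the combination. Of all 22406 genes tested, 923 and 4194 were called. HOXA13, a gene of the hands, feet and genital tract, had 438 and 399 reads in vehicle, 229 and 368 in talazoparib and 252 and 265 in the combination, from libraries of unequal depth. As CPM these were 14.4 and 14.3 in vehicle, 12.6 and 12.9 in decitabine, 9.33 and 10.5 in talazoparib and 10.3 and 8.72 in the combination. The 2 arms with talazoparib lay below both other arms. With talazoparib alone HOXA13 fell by 0.52 ± 0.12 on the log2 scale (adjusted p = 0.0141, edgeR) and was the only member called of 32, where 4.12% of genes were. That call was lost without vehicle replicate 1 (adjusted p = 0.152), vehicle replicate 2 (0.146) or talazoparib replicate 1 (0.178).

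**Figure D5:**
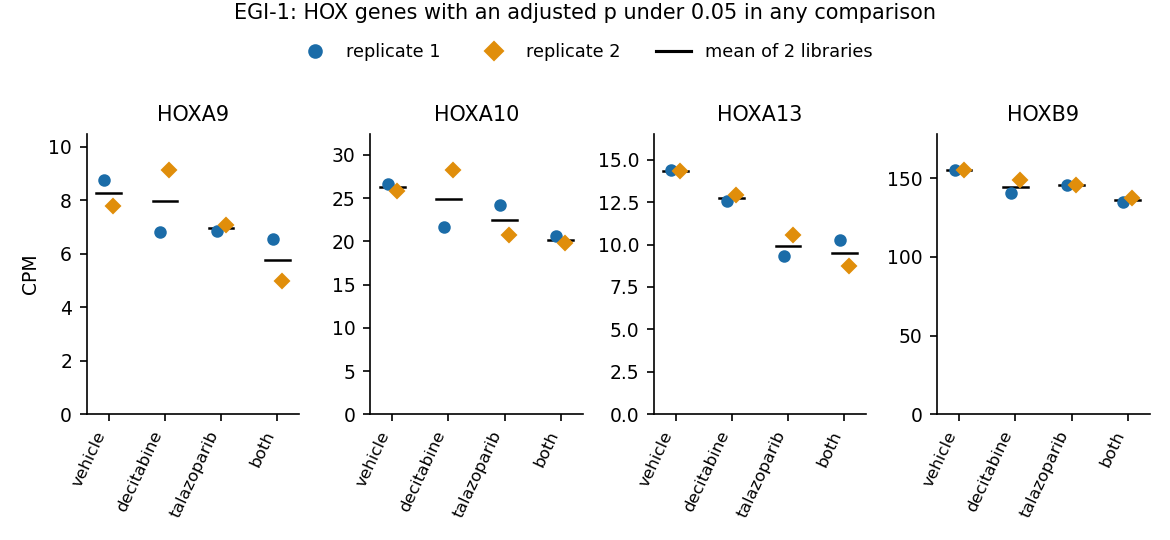
CPM of 4 HOX genes called in an EGI-1 comparison, in the 4 arms, with circles for replicate 1, diamonds for replicate 2 and a line for the mean (each panel has its own axis from 0). HOXA13 lay at 8.72 to 10.5 CPM in the 2 arms with talazoparib and at 14.3 and 14.4 CPM in vehicle.

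The combination called 5 members against vehicle, 1 higher, where 11.1% of genes were, and 4 lower, where 7.61% of genes were. The 4 lower ones were HOXA9, HOXA10, HOXA13 and HOXB9. HOXA13 fell by 0.61 ± 0.12 on the log2 scale (adjusted p = 1.55e-03, edgeR), and this call held with each library left out in turn and with DESeq2. HOXA9 had 8.76 and 7.80 CPM in vehicle and 6.57 and 5.0 in the combination (-0.53 ± 0.17, adjusted p = 0.0324, edgeR). HOXA10 had 26.7 and 25.8 and then 20.6 and 19.8 (-0.39 ± 0.12, adjusted p = 0.0261, edgeR). HOXB9 had 155 and 155 and then 135 and 137 (-0.19 ± 0.06, adjusted p = 0.0260, edgeR). In these 4 genes, picked by their calls, the libraries of the 2 arms did not overlap. The same held for members that were not called, among them HOXA2, HOXA11 and HOXB3. HOXA11, which lies between HOXA10 and HOXA13, had a log2 change of -0.25 ± 0.15 (adjusted p = 0.280, edgeR).

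Without the combination replicate 2, the library with reads of blood cell genes, HOXA13 alone remained called against vehicle (-0.49 ± 0.14, adjusted p = 0.0380, edgeR). The values without it were -0.34 for HOXA9 (adjusted p = 0.305), -0.35 for HOXA10 (0.160) and -0.20 for HOXB9 (0.103). HOXA9 was also lost without vehicle replicate 1 (adjusted p = 0.238) or vehicle replicate 2 (0.0887) and with DESeq2 (0.0598), HOXA10 without combination replicate 1 (0.0821), vehicle replicate 1 (0.174) or vehicle replicate 2 (0.121), and HOXB9 without combination replicate 1 (0.129), vehicle replicate 1 (0.171) or vehicle replicate 2 (0.177). The part of the blood cell reads in these results was not tested. Over the 32 members tested the median log2 change in the combination was -0.12 and that of all genes was -0.02.

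Set against decitabine alone, the combination called HOXA13 only (-0.44 ± 0.12, adjusted p = 0.0309, edgeR), where 7.68% of genes were called. This was lost without combination replicate 2 (-0.32, adjusted p = 0.268), vehicle replicate 1 (0.0682), vehicle replicate 2 (0.0683) or decitabine replicate 2 (0.0593). Set against talazoparib alone no member was called by edgeR or DESeq2, where 1.92% of genes were, and 1 member, HOXB7 (-0.19 ± 0.07), had an unadjusted p under 0.05, as 13.3% of genes did. Tested for a change beyond the added effects of the 2 drugs, the combination called no member by edgeR or DESeq2, where 0.161% of genes were called. At an unadjusted p under 0.05 there was 1, HOXB7 again (-0.27 ± 0.10), where 3.38% of genes passed. HOXB7 had 41.4 and 39.9 CPM in vehicle, 41.9 and 43.4 in decitabine, 41.8 and 42.4 in talazoparib and 36.4 and 37.7 in the combination, so the combination libraries lay lowest. Without combination replicate 2 the HOXB7 values were -0.21 ± 0.09 against talazoparib (adjusted p = 0.475, edgeR) and -0.29 ± 0.12 beyond the added effects (adjusted p = 1.00, edgeR). These comparisons share arms and are not independent of each other.

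The noncoding RNAs of the HOX clusters moved in both directions in HUCCT1 decitabine. Of 18 listed, 10 were tested, 3 rose and 4 fell, where 19.6% of the 22479 genes tested rose and 13.9% fell. HAGLR and HOXA11-AS, among the 3, did not pass the filter in both vehicle libraries, so that count is a description. HAGLR, beside HOXD1, went from 0 and 0 to 81 and 63 reads, HOXA11-AS from 2 and 5 to 37 and 29, and HOTAIRM1 from 12 and 15 to 103 and 90 (log2 fold change 2.79 ± 0.32, adjusted p = 1.87e-07, edgeR). HOXA-AS2, which shares exon bases with HOXA3 and HOXA4, fell from 403 and 415 to 205 and 228 (-0.95 ± 0.16, adjusted p = 3.28e-05, edgeR), and HOXB-AS3, which shares exon bases with HOXB3, HOXB5 and HOXB6, from 1022 and 1122 to 656 and 596 (-0.81 ± 0.12, adjusted p = 9.63e-06, edgeR). In the EGI-1 combination 2 of 17 tested were called, both lower, HOXA-AS2 (-0.53 ± 0.14, adjusted p = 0.0115) and HOXB-AS2 (-0.42 ± 0.13, adjusted p = 0.0273, both by edgeR), where 7.61% of all genes were lower. Without combination replicate 2 neither was called (HOXA-AS2 -0.50 ± 0.18, adjusted p = 0.0850, and HOXB-AS2 -0.22 ± 0.13, adjusted p = 0.336, edgeR). The median log2 fold change of the list was -0.03 in HUCCT1 decitabine and -0.13 in the EGI-1 combination, against 0.00 and -0.02 over all genes.

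HOX proteins bind DNA with cofactors of the TALE homeodomain class. In HUCCT1 decitabine 5 of 10 tested rose and 2 fell, against the 19.6% and 13.9% of all genes, and their median log2 fold change was 0.09. PKNOX2 went from 2 and 1 to 70 and 57 reads and MEIS3 from 24 and 33 to 79 and 90 (log2 fold change 1.53 ± 0.30, adjusted p = 2.31e-04, edgeR). PKNOX2 did not pass the filter in both vehicle libraries, so its call is a description. In the EGI-1 combination 1 of 8 TALE genes rose, TGIF2 (0.39 ± 0.08, adjusted p = 0.00298, edgeR), and 3 fell, among them PKNOX1 (-0.32 ± 0.10, adjusted p = 0.0294, edgeR), with a median of -0.27 over the list, where 11.1% of all genes rose and 7.61% fell. Without combination replicate 2 TGIF2 (0.37 ± 0.10, adjusted p = 0.0306) and PKNOX1 (-0.40 ± 0.12, adjusted p = 0.0459, both by edgeR) were still called.

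Polycomb and Trithorax genes regulate the clusters. Of 30 Polycomb genes tested in HUCCT1 decitabine 3 rose and 6 fell, shares of the list that stood beside 19.6% and 13.9% of all genes, led by BCOR (0.79 ± 0.11, adjusted p = 2.39e-06), CBX7 (0.67 ± 0.14, adjusted p = 7.48e-04) and EZH1 (-0.63 ± 0.13, adjusted p = 4.00e-04, all by edgeR). Of 20 Trithorax and activator genes 1 rose and 3 fell, led by the H3K27 demethylase KDM6B (1.13 ± 0.13, adjusted p = 1.28e-07) and by PSIP1 (-0.71 ± 0.11, adjusted p = 1.44e-05, both by edgeR). In the EGI-1 combination 4 of 30 Polycomb genes were called, all lower, led by EZH2 (-0.50 ± 0.07, adjusted p = 1.20e-04, edgeR), the main H3K27 methyltransferase, and 2 of 20 Trithorax genes rose and 1 fell, where 11.1% of all genes rose and 7.61% fell. Leaving out combination replicate 2 kept the call of EZH2 (-0.53 ± 0.10, adjusted p = 0.00180, edgeR), while 2 Polycomb genes were lower and 1 Trithorax gene was higher and 1 lower. The Polycomb medians were -0.11 in HUCCT1 decitabine and -0.05 in the EGI-1 combination, and those of the Trithorax list -0.04 and -0.03, on the log2 scale.

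Retinoic acid switches on anterior HOX genes, and 6 of 13 genes of its pathway rose and 3 fell in HUCCT1 decitabine, where 19.6% of all genes rose and 13.9% fell, with a median log2 fold change of 0.43 over the list. ALDH1A2, which makes retinoic acid, went from 23 and 9 to 57 and 46 reads (log2 fold change 1.64 ± 0.40, adjusted p = 2.10e-03, edgeR), and CYP26B1, which degrades it, from 83 and 113 to 237 and 264 (1.32 ± 0.20, adjusted p = 1.03e-05, edgeR). ALDH1A2 did not pass the filter in both vehicle libraries, so its p-value is a description. ALDH1A3, another enzyme that makes retinoic acid, is named here after its values were seen. It had 11663 and 12420 reads in vehicle and 7650 and 6992 in decitabine (-0.75 ± 0.10, adjusted p = 3.12e-06, edgeR). In the EGI-1 combination 5 of 13 were called, all lower, where 7.61% of all genes were, led by DHRS3 (-0.64 ± 0.07, adjusted p = 3.98e-06, edgeR). Without combination replicate 2 DHRS3 was still called (-0.59 ± 0.09, adjusted p = 3.08e-04, edgeR), while 1 of 14 tested was lower and 1 higher. The median of the list in the combination was 0.01.

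Of the genes that flank the clusters, 8 of 17 were called in HUCCT1 decitabine. Beside 19.6% and 13.9% of all genes, 1 rose and 7 fell. The 1 that rose was the homeobox gene EVX1 next to HOXA13 (5 and 6 reads, then 25 and 20, log2 fold change 1.97 ± 0.56, adjusted p = 8.12e-03, edgeR). EVX1 did not pass the filter in both vehicle libraries, so its p-value is a description. Among the 7 were SKAP2 (-0.64 ± 0.11, adjusted p = 7.54e-05) and LNPK (-0.62 ± 0.12, adjusted p = 2.46e-04, both by edgeR). In the EGI-1 combination 3 of 17 rose, where 11.1% of all genes did, and 2 fell, where 7.61% did, led by ATP5MC2 (-0.68 ± 0.07, adjusted p = 4.44e-06) and CALCOCO1 (0.54 ± 0.08, adjusted p = 1.30e-04, both by edgeR). Both were still called without combination replicate 2, when 1 flanking gene was higher and 2 were lower (ATP5MC2 -0.68 ± 0.10, adjusted p = 2.13e-04, and CALCOCO1 0.54 ± 0.10, adjusted p = 0.00230, edgeR).

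Of 9 ParaHox and other homeobox genes of gut and liver that were tested in HUCCT1 decitabine, 7 rose and 1 fell, beside 19.6% and 13.9% of all genes. At least 3 of those that rose, CDX1, CDX2 and NKX2-3, were tested only because they were high in decitabine. CDX2, an intestinal factor of the ParaHox family, went from 7 and 12 to 33 and 32 reads (1.73 ± 0.46, adjusted p = 5.02e-03, edgeR), CDX1 from 0 and 0 to 11 and 18, and NKX2-3 from 7 and 4 to 51 and 37. Likewise HAGLR, HOXA11-AS, PKNOX2, EVX1 and ALDH1A2 did not pass the filter in both vehicle libraries. In the EGI-1 combination 2 of 7 rose, where 11.1% of all genes did, and 1 fell, ONECUT2 (-0.59 ± 0.06, adjusted p = 2.39e-06, edgeR). With combination replicate 2 left out, ONECUT2 alone was called (-0.57 ± 0.08, adjusted p = 1.54e-04, edgeR).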

How the data were processed

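RNA was sequenced from 12 libraries, and the authors deposited raw counts per gene. The submitters' processing notes name fastp, Trim Galore, HISAT2, featureCounts and GRCh38, while the methods describe STAR and RSEM for EGI-1. The strand setting, the handling of reads over several genes and the annotation release are not given in the sources used here. The table's library names carry T50 for talazoparib, where the labels give 200 nM. No column of per-sample values was left unused.

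Counts were tested with the quasi-likelihood test of edgeR 4.0.16 (limma 3.58.1, R 4.3.3) after filterByExpr (minimum count 10) and TMM scaling, with Benjamini-Hochberg adjustment over all genes tested and a threshold of 0.05. The 8 EGI-1 libraries were fitted together, the 4 HUCCT1 libraries apart, and all 12 for comparisons of the lines. CPM used TMM factors, and levels between genes were compared per kilobase of exon. Positions came from GENCODE 44 and promoters from RefSeq. Intervals are exact binomial, at 95%, and cover counting error only. The scripts were tested on simulated data.

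Results for 1 member and 3 other genes are not reported here, though counts of genes include them. The other members were all accounted for. Values per library were given for members called in any comparison and the 2 highest per cluster and line, and for other genes only listed ones called in the comparison, markers and overlapping neighbours, at most 4 per list. The members and lists were chosen with earlier results of these data known. Other scalings, no filter, DESeq2 1.42.0, replicate blocks, other sets of libraries and each library left out were tried.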

Additional observations from a re-analysis of the deposited data

Results flagged for a closer look

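The decitabine effect differed between the lines for the members below by the interaction term of the edgeR fit of all 12 libraries. The values below are log2 differences of the effect, HUCCT1 minus EGI-1, and the dose (1000 and 500 nM) differs with the line. In HOXA they were 4.46 for HOXA4, 2.08 for HOXA5, 5.66 for HOXA9, 4.89 for HOXA10 and 7.98 for HOXA11. In HOXB they were 1.90 for HOXB2, 0.57 for HOXB4, 1.68 for HOXB7, 2.78 for HOXB8, 0.44 for HOXB9 and 3.01 for HOXB13. In HOXC they were 6.32 for HOXC4, 3.48 for HOXC9, 7.00 for HOXC10 and 5.42 for HOXC13. In HOXD they were 7.34 for HOXD1, 5.15 for HOXD3, 6.34 for HOXD4 and 7.63 for HOXD8. Values of genes with no read in HUCCT1 vehicle (HOXA11, HOXC4, HOXC10, HOXC13, HOXD1, HOXD3, HOXD4 and HOXD8) depend on the prior count of the fit and bound nothing.

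The HOXB4, HOXB9, HOXC13 and HOXD3 calls were weak. Without HUCCT1 vehicle replicate 1 the adjusted p was 0.289 for HOXB4, 0.299 for HOXB9, 0.102 for HOXC13 and 0.102 for HOXD3 (edgeR), and without EGI-1 vehicle replicate 2 it was 0.106, 0.128, 0.0709 and 0.0620.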

How the results depend on the processing

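No member's called change turned its sign under any alternative run. The count of members called in the EGI-1 combination against decitabine was 1, and it was 3 with no filter, 0 with a replicate block by title number, 0 with a replicate block by the series in the library names, 0 with all 12 libraries in 1 fit, 0 with only the libraries of the arms compared, and 0 to 4 with a library left out. HOXA13, the member called there, had adjusted p = 0.0589 with the title-number block and 0.0549 with the library-name block (edgeR). For the combination against vehicle the count was 5, and 2 with the title-number replicate block, 2 with all 12 libraries in 1 fit and 1 to 5 with a library left out. The title-number block ended the calls of HOXA9 (adjusted p = 0.0564), HOXA10 (0.0518) and HOXB9 (0.0527), and the library-name block that of HOXB9 (0.0512, edgeR). For talazoparib it was 1, and 0 with all 12 libraries in 1 fit and 0 to 1 with a library left out. In HUCCT1 decitabine it was 18, between 15 (DESeq2) and 25 (all 12 libraries) elsewhere, and 21 with the replicate block. Between the vehicle lines it was 30 (27 to 30, 28 with the block) and for the effect difference 20 (16 to 22, 21 with the block). Same-numbered libraries correlated at -0.267 to 0.222 in EGI-1 and 0.242 in HUCCT1, and with 2 numbers this does not show a pairing. The median log2 difference of all genes between the vehicle lines was -0.127 with upper-quartile scaling and -0.00843 with TMM, and upper-quartile scaling ended the HOXB2 call there (adjusted p = 0.0569, edgeR).

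With 2 libraries per arm and HUCCT1 vehicle genes at 0 counts, depth limits folds there to lower bounds.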
